A study of Mus musculus with 24 samples.

Results

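The baseline transcriptome of engineered C2C12 muscle was described from the 6 control libraries of the series, which are 6 of 24 libraries in all. Members were taken by their label, as the libraries named Control 1 to 6. C2C12 is an immortalised mouse myoblast line that withdraws from the cell cycle, fuses and forms contractile fibers when growth serum is replaced. The cells carried ChR2::tdTomato, a blue light-gated cation channel fused to a red fluorescent protein. They were differentiated on grooved fibrin gels for about 2 weeks in DMEM containing IGF-1 at 50 ng/ml and 10% horse serum. Control tissues received no light. All 4 groups of the series share the line, the transgene, the medium and the IGF-1, and the other 3 groups (1, 4 and 10 Hz light for 30 min per day) were not analysed here. The tissue came from 1 cell line, and the study's methods describe no added nerve or vessel cells. The study describes spontaneous twitching in all tissues, so the controls were without light and not motionless. It also reports that contractions of all tissues were recorded under electrical stimulation at 1 Hz on day 10. The labels do not say that the 6 libraries came from separate cultures, whereas the study's methods describe biological replicates. The p-values below therefore measure the spread between these libraries.

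Skeletal muscle fibers form when myoblasts commit through the MyoD family of transcription factors, leave the cell cycle and fuse into multinucleated cells. Developing fibers first use embryonic, perinatal and cardiac versions of the contractile proteins, and later replace them with adult fast or slow versions. The ratio between the versions is a common measure of how mature a fiber is. Levels are given here in TPM, transcript counts scaled to a total of 1000000 per library, which divide each gene's reads by its transcript length and so allow a comparison between genes. A gene was called expressed when it reached 1 TPM in every one of the 6 libraries. Because these are bulk libraries, fewer cells of a type and less RNA per cell cannot be told apart.

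The libraries held between 4194832 (library 5) and 7648707 (library 4) estimated counts on 56941 genes, 34041512 in all. Across the 11868 expressed genes, Pearson's r of log2(TPM + 1) ran from 0.971 for libraries 4 and 6 to 0.985 for libraries 1 and 3. No pair of libraries matched within sampling noise, since the smallest chi-square per gene was 3.16. Libraries differed in base composition. The Spearman correlation between a gene's deviation from its mean and the GC content of its transcript was 0.76 in library 4 and 0.35 in library 2, against -0.43, -0.42 and -0.38 in libraries 3, 6 and 1 and -0.06 in library 5. These are correlations across 9574 genes of 1 library each, and genes are not independent replicates. Protein-coding genes took 90.3% ± 0.71 of TPM (SD, n = 6), ribosomal protein genes 17.5% ± 1.24 and the mitochondrial genome 4.64% ± 0.95. The mitochondrial share was lowest in library 2 at 3.55% and highest in library 6 at 6.02%.

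Of the 56941 genes, 11868 were expressed, which is 20.8%. They comprised 10849 protein-coding genes, 526 lncRNA genes and 435 pseudogenes, and the protein-coding genes were 50.1% of the 21667 in the annotation. No count was found in any library for 5612 protein-coding genes, or 25.9%. The gene groups below are read against these shares. Those groups were chosen with earlier results of these data known, so their shares are descriptive only. Among all protein-coding genes the median level was 2.03 TPM, and 7.06% of them averaged 100 TPM or more. A mean of at least 1000 TPM was reached by 169 genes, 1443 genes lay between 100 and 1000 TPM and 6718 between 10 and 100 TPM. The 10 most abundant genes held 8.26% ± 0.88 of TPM and the 100 most abundant 31.4% ± 1.33.

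H19, the imprinted long noncoding RNA that is abundant in fetal muscle, was the most abundant gene of the control tissue, both per length and by reads. It ran from 11554 to 13862 TPM, with a median of 13132 TPM, and library 6 was the lowest. H19 (ENSMUSG00000000031) lies on the minus strand of chromosome 7 from 142129262 to 142133957 in GRCm39 and has 6 exons in its canonical transcript. Igf2, the growth factor gene imprinted together with H19, was present at 163 to 200 TPM, with a median of 181 TPM. Igf1 had 5 counts over all 6 libraries. H19 is the host transcript of miR-675, and the 2 mature arms are shown because they are the small RNAs encoded in the most abundant transcript. Capitals mark the seed, bases 2 to 8, and the sequences are those of RefSeq (GRCm38.p6), in which all 4 miRNA genes named here were found.
miR-675-5p: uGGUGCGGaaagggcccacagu
miR-675-3p: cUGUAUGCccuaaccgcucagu
The arms have different seeds. These libraries do not measure mature miRNAs, and the Mir675 gene itself had 0 counts.

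**Figure D1:**
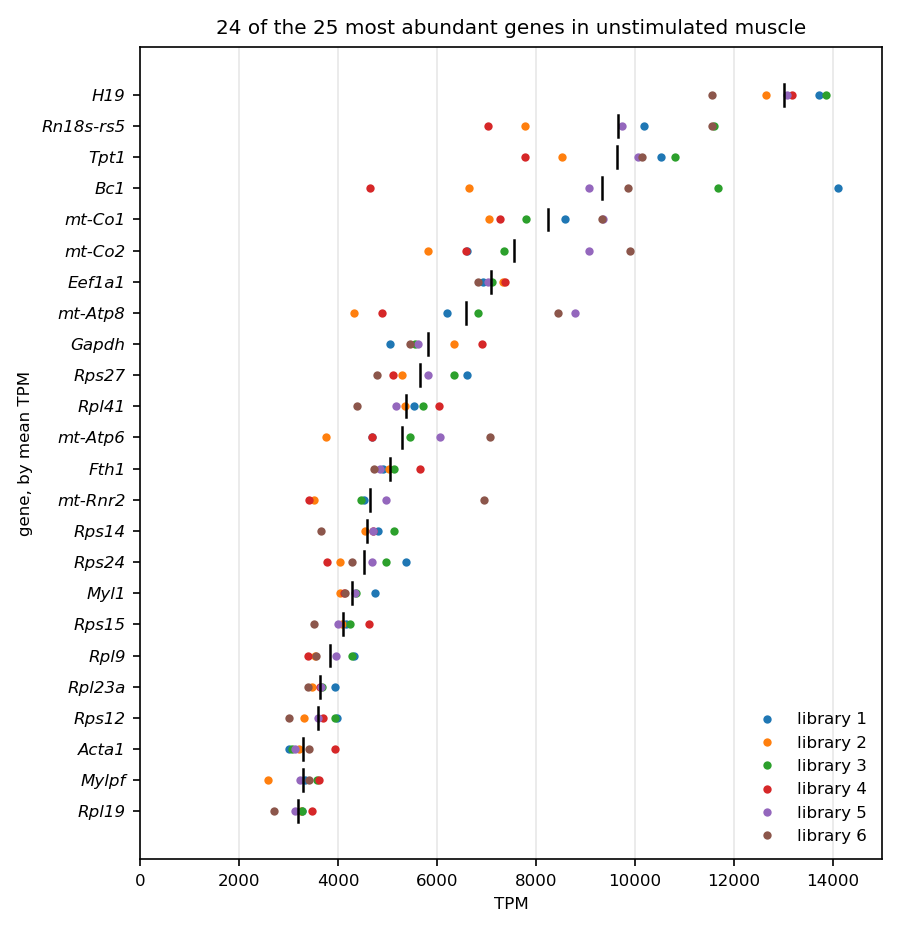
TPM (x axis) of 24 of the 25 genes of highest mean TPM (y axis) in the 6 control libraries; each point is a library and the black bar is the mean. H19 averaged 13012 TPM, and Bc1 spread most, from 4653 to 14106 TPM.

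The remainder of the 25 most abundant genes fell into a few functions, shown in the plot of 24 of the 25 leading genes. They included ribosomal protein genes (Rps27, Rpl41, Rps14, Rps24, Rps15, Rpl9, Rpl23a, Rps12 and Rpl19), Tpt1 and the translation factor Eef1a1. Others were the mitochondrial genes mt-Co1, mt-Co2, mt-Atp8, mt-Atp6 and mt-Rnr2, and the glycolytic and iron-storage genes Gapdh and Fth1. Eef1a1 was among the steadiest, at 7099 ± 217 TPM (SD, n = 6). The muscle genes among the 25 were Myl1, Acta1 and Mylpf, all of the sarcomere. Rn18s-rs5, a ribosomal RNA gene, stood at 9651 ± 1906 TPM. Bc1, a short noncoding RNA, averaged 9338 ± 3399 TPM and ranked 4 per length, but with a mean of 1681 counts it ranked 530 by reads. mt-Atp8 likewise ranked 8 per length and 498 by reads, and its gene overlaps mt-Atp6, so reads of these genes cannot be fully told apart.

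The tissue was checked against 5 genes of differentiated muscle, and each was expressed in all 6 libraries. Acta1, skeletal muscle actin, ran from 3004 to 3939 TPM with a median of 3167 TPM. Tnnt2, the cardiac and embryonic troponin T, ran from 988 to 1300 TPM with a median of 1185 TPM. Myog, the transcription factor of terminal differentiation, ran from 248 to 423 TPM with a median of 290 TPM. Libraries 4 and 6 were the highest for Myog and the other 4 lay close together. Actc1, cardiac actin, ran from 126 to 221 TPM with a median of 156 TPM, and Myh3, embryonic myosin heavy chain, from 62.9 to 136 TPM with a median of 78.9 TPM. Both were highest in library 6.

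The 250 bases before the annotated start of the canonical transcript are shown for Myog and for the actins Acta1 and Actc1, since Myog is the differentiation factor and the actins encode near-identical proteins at very different levels. They were read from GRCm39 on the gene's strand, at chr1:134217457-134217706 (plus strand), chr8:124621687-124621936 (minus strand) and chr2:113884044-113884293 (minus strand). Capitals mark matches to motifs, which were on both strands the E-boxes CAGCTG and CACCTG bound by MyoD family factors, the CArG box of serum response factor and the MEF2 site, and to TATAAA on the strand of the gene.
Myog promoter: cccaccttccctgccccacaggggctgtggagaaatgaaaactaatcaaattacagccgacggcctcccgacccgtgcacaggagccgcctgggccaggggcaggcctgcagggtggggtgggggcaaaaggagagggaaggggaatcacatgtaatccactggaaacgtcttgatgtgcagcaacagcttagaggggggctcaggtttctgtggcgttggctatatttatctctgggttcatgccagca
Acta1 promoter: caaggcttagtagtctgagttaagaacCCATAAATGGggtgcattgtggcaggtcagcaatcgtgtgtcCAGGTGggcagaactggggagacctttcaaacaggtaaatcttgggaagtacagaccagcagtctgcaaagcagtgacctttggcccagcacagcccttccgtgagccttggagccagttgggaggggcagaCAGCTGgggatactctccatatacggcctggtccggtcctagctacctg
Actc1 promoter: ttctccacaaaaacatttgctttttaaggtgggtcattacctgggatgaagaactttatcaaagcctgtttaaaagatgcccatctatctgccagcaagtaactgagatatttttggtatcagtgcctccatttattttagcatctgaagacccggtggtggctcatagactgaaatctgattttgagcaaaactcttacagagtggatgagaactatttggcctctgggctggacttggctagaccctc
The Acta1 window held the E-box CAGCTG starting 49 bases before the start, CACCTG on the other strand at 181 bases and a CArG box at 223 bases. No full match was found in the Myog, Actc1 or Tnnt2 window, which says only that these letters are not there. The Myog window holds ctatatttat starting 29 bases before the start, which matches the MEF2 consensus searched except at its outer base. With that base left free, a search added after the data were seen, 3.18% of 21770 promoters hold a match. The Myh3 window held TATAAA at 29 bases. By comparison, CAGCTG stood in 16 of 70 promoters of the sarcomere, Z-disc and M-band genes (22.9%), 11.1% of 10849 promoters of expressed protein-coding genes and 11.9% of 21770 promoters of all protein-coding genes. MEF2 sites stood in 9 of the 70 (12.9%) against 1.29% and 1.66%, and CArG boxes in 4 (5.71%) against 1.15% and 1.4%. CACCTG stood in 23 (32.9%) against 15.9% and 17.7%, and TATAAA in 4 (5.71%) against 4.2% and 8.03%. These are counts of letters in a window and were not tested. The start of the canonical transcript may not be the one used in muscle.

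Sarcomeric myosin heavy chain was a mixture of embryonic, perinatal, fast and slow genes. Myh3, the embryonic gene, took 25.3% ± 3.64 of the pool (SD, n = 6), Myh1, adult fast type IIx, 21.1% ± 2.62, Myh7, slow and cardiac, 19.1% ± 3.24, and Myh8, perinatal, 17.2% ± 1.56. The adult fast genes Myh4 and Myh2 took 4.58% ± 0.41 and 1.96% ± 0.27. Myh6, the atrial cardiac gene, took 9.62% ± 1.42. Its share was smaller by reads, at 2.11% ± 0.36, because each TPM of Myh6 stood for 25.3 counts over the 6 libraries against 141 for Myh3, which means that its reads were assigned to shorter transcripts. Myh7 likewise stood at 19.1% per length and 11.5% by reads. The embryonic and perinatal genes together reached 146 ± 35.4 TPM against 159 ± 25.9 TPM for the adult genes Myh1, Myh2, Myh4 and Myh7, and the difference did not pass the test (log2 ratio -0.14 ± 0.12, adjusted p = 0.0642, exact sign-flip permutation test, n = 6). By reads without a length correction the sign turned (log2 ratio 0.22) and the test was passed. The result per length depends on Myh7, which was counted as adult here and is listed as mature in the study. Without it, the adult fast genes Myh1, Myh2 and Myh4 summed to 95 ± 23.2 TPM. That sum lay below Myh3 and Myh8 together in every library, a comparison that was not tested. Myh3 exceeded Myh8 in every library, by 1.46-fold, and in library 6 its share was largest at 31.6%, where Myh7 was lowest at 13.8%.

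**Figure D2:**
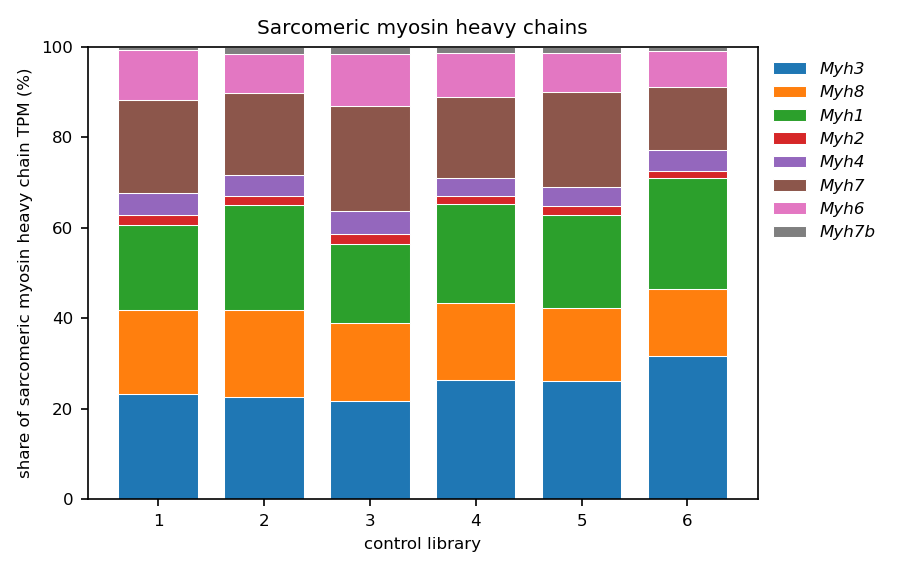
Stacked bars of the share (%, y axis) of each gene in the summed TPM of 8 sarcomeric myosin heavy chain genes, 1 bar for each control library (x axis). Myh3 ran from 21.6% to 31.6% and was largest in library 6, and Myh7b, at the top, reached at most 1.56%.

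Myh6, Myh7 and Myh7b host a family of muscle miRNAs in their introns. The arms that give the family its name are shown because they share most of a seed.
miR-208a-3p: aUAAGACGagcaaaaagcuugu
miR-208b-3p: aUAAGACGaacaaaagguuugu
miR-499-5p: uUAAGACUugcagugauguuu
Hosted by Myh6 and Myh7, miR-208a-3p and miR-208b-3p have the same seed, while miR-499-5p, hosted by Myh7b, differs from it in the last seed base. The levels of the hosts were 32.4 ± 4.99 TPM for Myh6, 64 ± 9.1 TPM for Myh7 and 4.1 ± 1.2 TPM for Myh7b (SD, n = 6). The genes Mir208a, Mir208b and Mir499 had 0 counts.

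In the comparisons of gene pairs that follow, the log2 ratio of TPM + 0.1 was taken within each library and tested with a 2-sided exact sign-flip permutation test over the 6 libraries. The test can give no p below 0.03125, and a pair with the same sign in all 6 libraries reaches it. With Benjamini-Hochberg adjustment over the 38 pairs tested, such pairs have adjusted p = 0.0339 in this exact permutation test. This held for 35 pairs, and 3 did not pass. The pairs were chosen with earlier results of these data known, so the number passing is descriptive only. The first-named gene was higher in 23 of the 35 and the second-named in 12, and sizes are therefore more informative than p here.

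Fast light chains and skeletal actin exceeded their embryonic, slow and cardiac counterparts. Myl1, fast essential light chain, ran from 4041 to 4742 TPM and exceeded the embryonic Myl4 (896 to 1310 TPM) in all 6 libraries by 3.95-fold. Mylpf, the fast regulatory light chain, stood at 3289 ± 370 TPM (SD, n = 6) and exceeded the slow Myl2 in all 6 libraries (log2 ratio of Myl2 to Mylpf -6.64 ± 0.13). The slow Myl3 had 22 counts in all. Acta1 exceeded Actc1 by 20.2-fold (log2 ratio of Actc1 to Acta1 -4.34 ± 0.29), and no library of Actc1 came near the lowest of Acta1. Actin paralogs are close in sequence, so reads may be split between them with error. Among the non-muscle actins, Actb and Actg1 stood at 1237 and 1022 TPM.

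Troponins, the calcium switch of the thin filament, were mixed. Tnnc1, slow and cardiac troponin C, ran from 2238 to 2855 TPM and Tnnc2, fast, from 1375 to 1772 TPM, with no overlap, a 1.61-fold difference. Tnni1, slow, exceeded Tnni2, fast, in all 6 libraries by only 1.25-fold. Tnnt2 and Tnnt3, fast troponin T, did not pass the test (1168 ± 124 against 1078 ± 117 TPM, log2 ratio 0.12 ± 0.13, adjusted p = 0.0642, exact permutation test, n = 6), and Tnnt2 was higher in 5 of 6 libraries. By reads this pair passed (log2 ratio 0.31). Tnnt1, slow troponin T, was 2.38-fold below Tnnt3. Tnni3, the cardiac troponin I, was at 2.67 ± 1.10 TPM. All 8 troponin genes were expressed and 7 averaged over 100 TPM. Library 2 was the lowest in their summed level, at 8344 TPM against 9702 to 10319 TPM in the other libraries, and also in that of the myosin light chains.

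Tropomyosins Tpm1 and Tpm2 stood at 1441 ± 63.7 and 1060 ± 56.8 TPM. Of the 41 genes of the Z-disc, titin filament and M-band, 38 were expressed and 15 averaged over 100 TPM, with a median of 64.3 TPM. The chaperone Cryab (2006 ± 224 TPM), the stress-responsive Ankrd1 (927 ± 243 TPM) and the intermediate filament gene Des (872 ± 146 TPM) led them. Transcripts of the giant proteins were present at steady levels. Neb, nebulin, ran from 143 to 152 TPM and Ttn, titin, from 42.0 to 48.2 TPM. Actn3, the fast alpha-actinin, exceeded Actn2 by 2.70-fold, whereas Mybpc1, slow myosin binding protein C, exceeded the fast Mybpc2 by 3.29-fold. Mybpc3 and Myoz3 were near 0, at 0.13 and 0.051 TPM.

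**Figure D3:**
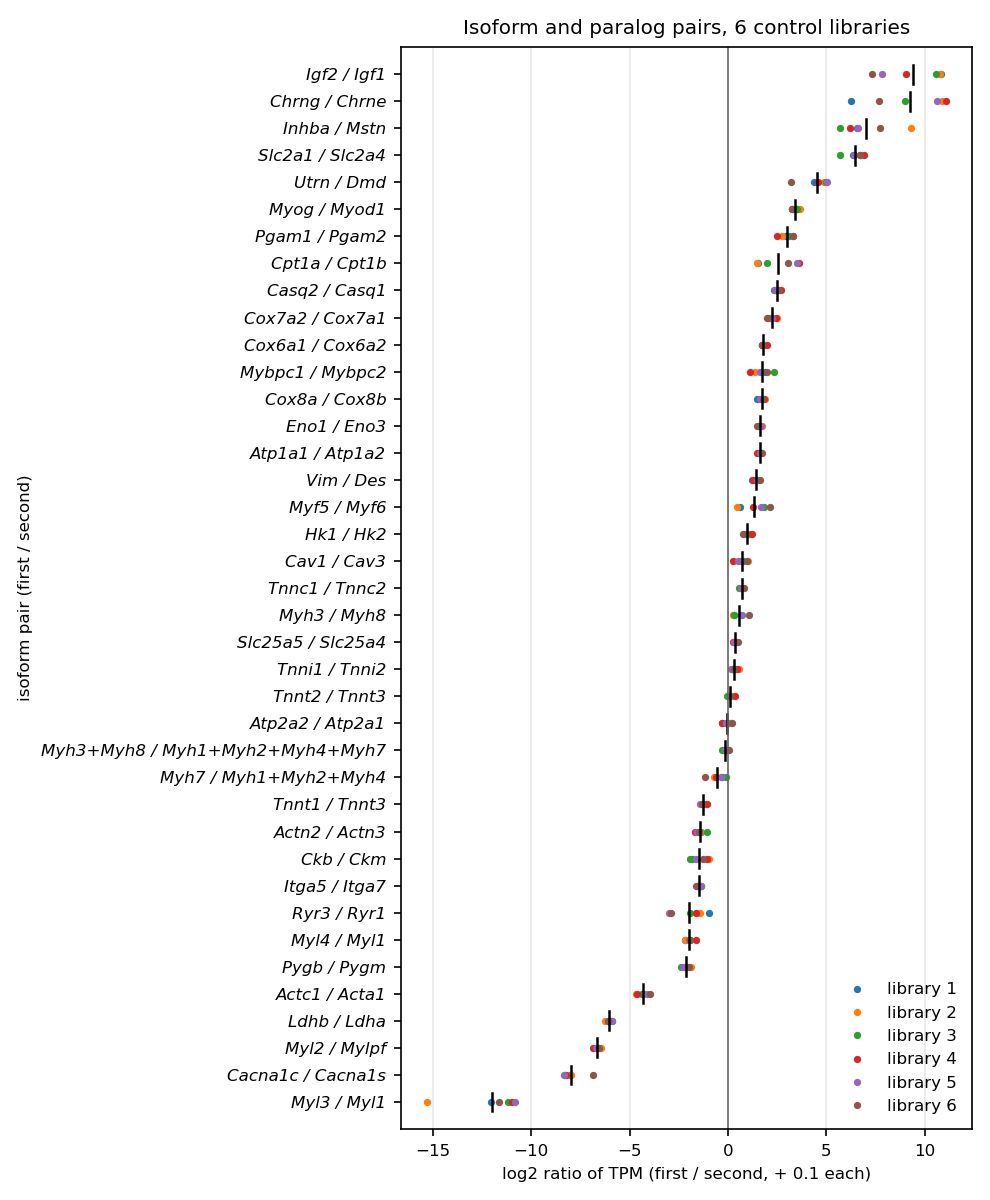
Log2 ratio of TPM (x axis, 0.1 added to each member) for the 39 pairs of related genes (y axis); each point is a control library, the black bar is the mean and the vertical line marks equal levels. Means ran from -11.98 for Myl3 over Myl1 to 9.39 for Igf2 over Igf1 and single libraries from -15.30 for Myl3 over Myl1 to 11.08 for Chrng over Chrne. Both ends have a member near 0 and move with the pseudocount (Igf2 over Igf1 averaged 7.17 with 1 TPM and 10.90 with 0.01 TPM).

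Genes of excitation-contraction coupling, which carry the membrane signal to calcium release, were largely present, with 30 of 33 expressed and a median of 60.9 TPM. Bin1, a T-tubule shaping protein, led the list at 530 ± 68.6 TPM. Casq2, the cardiac calsequestrin, exceeded the skeletal Casq1 in every library by 5.64-fold. Casq2 lay between 384 and 418 TPM in 5 libraries and at 497 TPM in library 6. The calcium pumps Atp2a1, fast, and Atp2a2, slow and cardiac, could not be separated (289 ± 27.5 against 279 ± 33.4 TPM, log2 ratio -0.06 ± 0.22, adjusted p = 0.562, exact permutation test, n = 6), and each was higher in 3 libraries. By reads without a length correction Atp2a2 was higher and passed the test (log2 ratio 0.68). Cacna1s, the voltage sensor of the T-tubule, stood at 26.9 ± 5.32 TPM and Ryr1, the release channel, at 14.8 ± 1.60 TPM. Their cardiac relatives were nearly missing, with 1 count for Cacna1c and a mean of 0.0052 TPM for Ryr2. Pump regulators were low, with Sln at 1.12 ± 0.63 TPM, Pln at 1.31 ± 0.75 TPM, Strit1 at 6.34 TPM and Mrln at 7.10 TPM. The calcium buffer Pvalb of fast adult fibers was at 16.0 ± 4.40 TPM.

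Transcripts of the acetylcholine receptor subunits were of the fetal composition. Chrng, the fetal gamma subunit, ran from 123 to 216 TPM. Chrne, the adult epsilon subunit that replaces it after innervation, had 4 counts over all 6 libraries and 0 in libraries 2, 4 and 5. Chrng was higher in every library, and the ratio is not given because Chrne was so close to 0. The shared subunits Chrna1, Chrnd and Chrnb1 stood at 130 ± 22.7, 111 ± 9.31 and 41.2 ± 8.83 TPM. Clcn1, the chloride channel of adult fibers, was at 0.39 ± 0.21 TPM. Membrane channel genes as a group had 18 of 31 members expressed and a median of 2.82 TPM, and Aqp4, Scn4b, Kcnc4 and Kcnq5 had 0 counts.

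Glycolytic genes were largely expressed. The list of 39 glycolysis and glycogen genes had 32 members expressed, a median of 85.2 TPM and a sum of 2.08% ± 0.21 of all TPM. Gapdh (5825 ± 677 TPM), Aldoa (2971 ± 378 TPM) and Pkm (2245 ± 284 TPM) led it. Tissue versions were divided. Ldha, muscle lactate dehydrogenase, exceeded Ldhb by 65.4-fold and Pygm, muscle glycogen phosphorylase, exceeded Pygb by 4.40-fold, but Pgam1 exceeded the muscle Pgam2 by 7.90-fold and Eno1 the muscle Eno3 by 3.06-fold. Slc2a1, the basal glucose transporter Glut1, ran from 154 to 263 TPM and the insulin-responsive Slc2a4, Glut4, from 1.38 to 3.66 TPM, an 88.6-fold difference. Mb, myoglobin, reached 2149 ± 150 TPM. Ckm, muscle creatine kinase, was at 91.9 ± 14.4 TPM and only 2.75-fold above the brain type Ckb.

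Of 22 listed genes of the respiratory chain and its carriers, 18 averaged over 100 TPM and 21 were expressed, with a median of 406 TPM. Ucp2, Ucp3 and Cox4i2 were low at 13.5, 2.97 and 0.33 TPM. The ubiquitous member exceeded the muscle member in each of the 3 cytochrome oxidase pairs. Cox7a2 exceeded Cox7a1 by 4.71-fold, Cox6a1 exceeded Cox6a2 by 3.45-fold and Cox8a exceeded Cox8b by 3.28-fold. Slc25a5, the ubiquitous adenine nucleotide carrier, exceeded the muscle Slc25a4 by 1.27-fold per length, while by reads without a length correction Slc25a4 was higher (log2 ratio -0.36). Of 32 genes of fatty acid use, 26 were expressed at a median of 29.3 TPM. Ppargc1a, the coactivator of mitochondrial biogenesis, was at 1.23 ± 0.34 TPM, and Cpt1b, the muscle carnitine palmitoyltransferase, lay 5.73-fold below the liver form Cpt1a.

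Regulators of myogenesis followed the order Myog, Myod1, Myf5 and Myf6. Their means were 320 ± 77.6, 30.8 ± 10.7, 15.8 ± 5.03 and 6.04 ± 1.32 TPM. Myog exceeded Myod1 in all 6 libraries (log2 ratio 3.41 ± 0.18) and Myf5 exceeded Myf6 by 2.52-fold. Myod1 and Myf5 were not among the pairs tested, and Myod1 was higher in 6 of 6 libraries, although its range (21.7 to 45.1 TPM) overlapped that of Myf5 (8.26 to 23.1 TPM). Pax7, the satellite cell factor, had 67 counts and 0.57 ± 0.51 TPM, and Pax3 had 1 count. Mymk and Mymx, the membrane proteins that drive fusion, stood at 303 ± 52.2 and 104 ± 28.2 TPM. Of 22 genes listed for fusion 15 were expressed, and Nphs1 and Adgrb3 had 0 counts.

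Cell cycle genes differed widely in level. Of 30 listed, 22 were expressed (73.3%, against 50.1% of all protein-coding genes), and 11 reached 5 TPM in every library. The median of the list was 4.13 TPM, against 2.03 TPM among all protein-coding genes. Mki67, the proliferation antigen, was at 0.15 ± 0.076 TPM. Pcna, the replication clamp, and Rrm2, a ribonucleotide reductase subunit, were far above the rest at 169 ± 12 and 113 ± 9.02 TPM. Cdk1 followed at 28.6 ± 5.88 TPM. Among genes of cell cycle exit, Cdkn1a, the p21 inhibitor, led at 1125 ± 142 TPM, with Gadd45a at 550 ± 104 TPM and Ccnd3 at 107 ± 14.8 TPM. Cdkn2a and Cdkn2b, which encode the p16 and p15 inhibitors and adjoin each other on chromosome 4, had 0 counts in all 6 libraries.

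Dystrophin was scarce. Dmd had 65 counts, between 0.27 and 0.40 TPM in 5 libraries and 1.65 TPM in library 6, and its relative Utrn, which takes its place in immature fibers, ran from 9.49 to 15.8 TPM. The log2 ratio of Utrn over Dmd was 4.50 and, because Dmd was so low, moved to 3.15 with 1 TPM added and 4.78 with 0.01 TPM added. Other members of the complex were present, and 38 of 40 genes of the dystrophin complex, its partners and membrane repair were expressed. Itga7, the muscle laminin receptor, stood at 271 ± 34.5 TPM and exceeded the fibronectin receptor Itga5 by 2.77-fold. Dag1, dystroglycan, was at 99.7 ± 15.6 TPM.

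Matrix genes were uneven. Of 45, 39 were expressed, with a median of 25.9 TPM. Spp1, osteopontin, and Sparc led at 911 ± 326 and 793 ± 104 TPM, and Spp1 was highest in library 6 at 1526 TPM. Col3a1 and Col1a2 stood at 120 ± 52.0 and 51.7 ± 15.8 TPM, while Col1a1, which pairs with Col1a2 in type I collagen, was at 5.05 ± 1.93 TPM. The ranges of Col1a1 (2.81 to 8.45 TPM) and Col1a2 (34.4 to 78.4 TPM) did not overlap. Secreted factors were led by Mif (1490 ± 281 TPM), Igf2 and Vegfa (171 ± 32.8 TPM). Inhba, the activin A subunit, was at 73.4 ± 9.19 TPM and Mstn, myostatin, at 0.65 ± 0.46 TPM, with 0 in library 2. The exercise-associated factors Fgf21 and Il6 were at 38.9 ± 8.12 and 4.21 ± 1.70 TPM.

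Stress and proteolysis genes were abundant without light. All 34 genes of the heat shock and stress list were expressed and 24 averaged over 100 TPM, led by Cryab, Mt2 (1966 ± 315 TPM), Hsp90ab1 (1946 ± 160 TPM), Hspa8 and Mt1. Hspa1a and Hspa1b are near-identical copies and their values are uncertain. Of the atrophy and proteolysis list 24 of 25 were expressed. Ctsl, a lysosomal protease, was at 1405 ± 122 TPM. The muscle ubiquitin ligases Trim63 (MuRF1) and Fbxo32 (atrogin-1) were lower, at 64.3 ± 21.0 and 9.01 ± 2.36 TPM. All 25 immediate early genes, the early responders to stimulation, were expressed, with Ccn2 at 635 ± 185 TPM, Egr1 at 133 ± 25 TPM and Fos at 22.7 ± 5.66 TPM. Clock genes were present at a median of 17.6 TPM, and Bmal1 at 7.07 ± 1.15 TPM. Vim, vimentin, exceeded Des by 2.67-fold, and Nes, nestin, stood at 312 ± 63.0 TPM, both being filaments of immature cells.

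Grouped by stage, the 26 genes listed for developing muscle had 24 expressed and a median of 166 TPM, and the 46 listed for mature fibers had 37 expressed and a median of 42.9 TPM. The lists have different members and lengths and were not tested against each other. The developmental list counted the slow troponins Tnnc1, Tnni1 and Tnnt1, at 2595, 1514 and 453 TPM, and the slow Myh7 was in neither list. The medians therefore depend on where slow genes were placed. The mature genes at the bottom were Aqp4, with 0 counts, Myoz3, Clcn1 and Chrne, and the developmental gene at 0 counts was Dlk1.

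**Figure D4:**
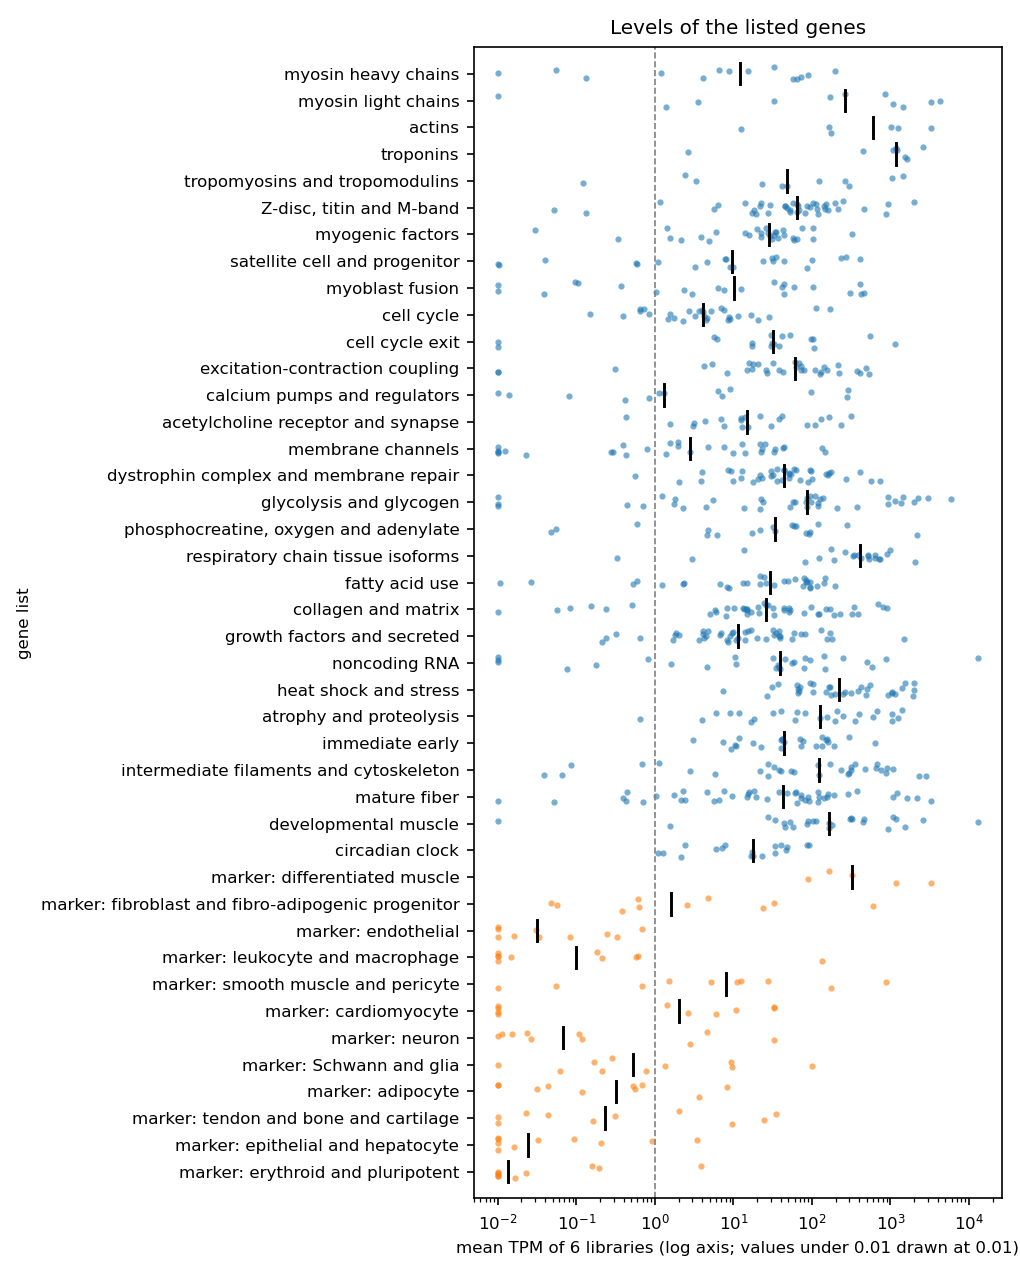
Mean TPM over the 6 control libraries (x axis, log scale) of each gene in the fixed lists (y axis); blue points are functional lists, orange points marker lists of cell types, the black bar is the list median and the dashed line marks 1 TPM. Troponins (median 1192 TPM) lay at the top, and endothelial, leukocyte and neuron markers had medians below 0.1 TPM.

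Markers of other cell types differed between lists, as the plot of list levels shows. Of all protein-coding genes 50.1% were expressed, and the fibroblast, smooth muscle and cardiomyocyte markers were near or above that share. The remaining lists of other cell types lay below it. None of 10 endothelial markers was expressed, their summed level ran from 0.49 to 2.20 TPM, and Tie1, Emcn and Erg had 0 counts. Of 10 leukocyte markers 1 was expressed, Cd68 at 135 ± 20.9 TPM, while Ptprc, C1qa and C1qb had 0 counts. Of 10 fibroblast and fibro-adipogenic markers 5 were expressed, with a sum of 461 to 906 TPM that was nearly all Ly6a (602 ± 127 TPM), and Pdgfra was at 4.75 TPM and Thy1 at 0.047 TPM. Smooth muscle markers had 6 of 10 expressed, chiefly Des and Acta2, with Myh11 at 0.056 TPM and Rgs5 at 0 counts. Cardiomyocyte markers had 5 of 10 expressed (summed 74.4 to 96.3 TPM), led by Myl2 and Myh6, with Nppa, Myl7 and Tbx5 at 0 counts. Neuron markers had 3 of 10 expressed, Schwann and glia 3, adipocyte 2, tendon, bone and cartilage 3, epithelial and hepatocyte 1, and erythroid and pluripotent 1. Of these, the highest were Pmp22 at 101 TPM, Scx at 34.4 TPM and Tubb3 at 32.8 TPM.

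At the imprinted Dlk1 domain of chromosome 12, Dlk1 and Mirg had 0 counts, Meg3 had 1 count and Rian 2 counts, whereas H19 and Igf2 of the imprinted domain on chromosome 7 were abundant. Wdr25 and Begain, upstream of Dlk1, were at 4.35 ± 1.53 TPM and 9 counts. On chromosome 4, Mtap next to Cdkn2a was at 43.0 ± 6.39 TPM, and Dmrta1 on the far side of Cdkn2b had 0 counts. These 4 neighbours were chosen after the values were seen. Xist was at 55.8 ± 11.6 TPM and the 4 Y-linked genes Ddx3y, Kdm5d, Uty and Eif2s3y had 0 counts. A count of 0 over the 6 libraries allows a level of up to 0.088 CPM, counts per 1000000 (3 counts of 34041512), a limit that covers counting error only, and genes transcribed without a poly(A) tail may be missed.

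The spread between libraries was small for most genes. Counts were scaled by library size with TMM factors to counts per 1000000 (CPM). The median coefficient of variation (CV) over the 11868 expressed genes was 14.3%, with quartiles of 10.2% and 20.5%. Counting error alone gave a median of 7.17%, and the extra CV, the part beyond counting error, had a median of 11.2%. Genes of at least 100 TPM varied less, with a median CV of 10.7% over 1598 genes against 21.8% over 3613 genes under 10 TPM. These CVs include counting error, which alone had a median of 15.3% in the genes under 10 TPM. The extra CV of the genes of at least 100 TPM had a median of 10.1%, near the 11.2% of all expressed genes. For 1277 genes (10.8%) the CV did not exceed counting error. Among the lists other than cell type markers, the median CV of expressed members ran from 8.95% for respiratory chain versions and 10.5% for tropomyosins and tropomodulins to 20.8% for collagen and matrix and 24.3% for noncoding RNA. These lists also differ in level, and the differences were not tested.

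**Figure D5:**
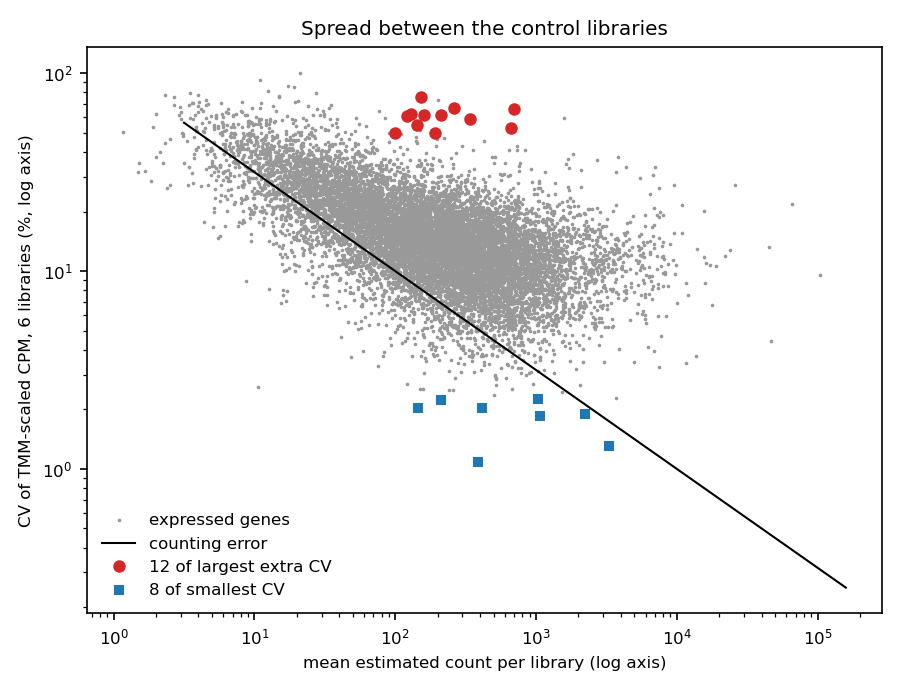
CV of TMM-scaled CPM over the 6 control libraries (y axis, log scale) against mean estimated count (x axis, log scale) for the expressed genes; the line is counting error, red circles the 12 genes of largest extra CV and blue squares the 8 of smallest CV. The red genes had CVs of 49.9% to 75.6% and the blue genes 1.09% to 2.26%.

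Candidates were the 7762 expressed protein-coding genes with a mean count of at least 100 per library. Predicted genes with Gm or Rik names were passed over. The 12 most variable candidates were Srp54b, Nefm, Grem1, Megf10, Entpd4b, Entpd4, Cp, Nefl, Hmga2, Plau, Chac1 and Alcam. These values chose the genes and carry no test. The last of them had an extra CV of 48.9%, and E2f2, the next below, 48.4%. In 9 of the 12 library 6 was the highest. Nefm and Nefl, neurofilament genes that lie on chromosome 14, were at 29.2 to 55.7 and 38.3 to 55.0 CPM in libraries 1 to 5 and at 113 and 136 in library 6. Grem1, a secreted BMP antagonist, ran from 56.8 to 187 in those libraries and reached 289 in library 6. Cp, ceruloplasmin, was at 14.2 to 19.8 and then 50.3. Without library 6 the CV of Cp fell from 60.6% to 13.4%, while that of Grem1 stayed at 48.5%.

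Srp54b and Chac1 were highest in library 2 and Entpd4b in library 1. Chac1, a stress-induced glutathione-degrading enzyme, was highest in library 2 at 62.3 CPM and lowest in library 6 at 16.4. Entpd4 and its copy Entpd4b were mirror images, with 8.41 and 60.6 in library 1 against 52.9 and 7.14 in library 6, yet their sum stayed between 57.4 and 69.4 with a CV of 7.75%. Srp54b, with a CV of 75.6%, belongs to a cluster of 3 near-identical copies whose sum had a CV of 8.27%. The values of single copies are uncertain, because reads are shared between them. At the other end, Ptpn1, Vdac1, Bag3, Nars, Plekha8, Ube4b, Nup85 and Ube2h had CVs of 1.09% to 2.26%, below counting error for each, and Vdac1, the mitochondrial porin, stayed between 570 and 589 CPM.

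Of the 7762 genes, 580 had an extra CV over 20%, and library 6 was the highest in 259 of them and library 4 in 119. A correction of each library for the GC content of transcripts left 310 such genes, of which library 6 was the highest in 190 and library 4 in 19. The correction was added after the data were seen. It lowered the median CV from 14.3% to 11.9%, and raised that of Ptpn1 from 1.09% to 8.56%. What sets library 6 apart was not tested.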

How the data were processed

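Polyadenylated RNA of each tissue was made into libraries and sequenced with 50-base paired-end reads. Per the labels, low-input samples were ribodepleted instead, without saying which. The authors quantified genes with Salmon within the nf-core RNA-seq workflow on GRCm39. No source used here gives the annotation release or the use of strand in counting. The submitters' processing notes also name STAR, BWA 0.7.12-r1039 and bedtools 2.25.0. The deposited tables hold estimated counts and TPM per gene; splice isoforms were not resolved. The estimated counts were used as deposited, without rounding, except where reads were thinned. Of the 56941 genes 98.9% matched GENCODE M39, which gave biotype, position, length and GC content. TMM factors came from edgeR 4.0.16, alternatives from DESeq2 1.42.0, and other steps from Python with pandas and scipy. The spread statistics and the sign-flip test were checked on simulated data. 804 symbols in 43 lists and 39 pairs were chosen with earlier results of these data known; 1 symbol had no row. Named were the 25 genes of highest mean TPM, pair members, the 12 most and 8 least variable genes, and the highest and lowest of each list. Some genes are not reported here.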

Additional observations from a re-analysis of the deposited data

Results flagged for a closer look

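In 14 of 159 sets of 6 values, the highest or lowest library lay farther from the rest than Dixon's limit for 6 values allows. Of these, 6 were among the 12 genes named for their spread between libraries, which had to be uneven. The other 147 sets held 8, where chance flags about 1 in 20, and the sets share genes and libraries. Library 6 was the highest for Nefm (51.2 TPM), Nefl (60.6 TPM), Megf10 (10.5 TPM), Cp (37.5 TPM), Alcam (21.1 TPM), Casq2 (497 TPM) and Dmd (1.65 TPM). Library 2 was the lowest for Mylpf (2588.5 TPM) and for the summed level of the myosin light chains (10139 TPM), the troponins (8344 TPM) and the mature fiber genes (10388 TPM), which share Mylpf, Tnnc2, Tnni2 and Tnnt3. It was the highest for Cav1 (125 TPM) and for Srp54b (81.1 TPM), whose reads are shared with near-identical copies. Library 4 was the highest for Cav3 (80.8 TPM). The GC correlation was -0.42 in library 6, close to -0.43 in library 3 and -0.38 in library 1. It was 0.35 in library 2 and 0.76 in library 4. The part of GC content in these values was not tested.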

How the results depend on the processing

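The count of expressed genes stayed within 1.5 times 11868, from 9133 at 5 TPM to 13896 at a mean of 1 TPM, and from 11943 to 12023 when 1 library was left out. Genes at 0 in every library numbered 32276 and ran from 32699 to 33110 without 1 library. The 10 most abundant genes held 8.26% of TPM, but 6.50% among nuclear protein-coding genes and 6.83% of CPM, and the 100 most abundant 31.4%, 29.5% and 19.2%. By the construction of these alternatives, the first leaves out noncoding and mitochondrial genes and the second the length correction. The median CV of 14.3% ran from 13.1% to 14.8% without 1 library, 17.0% on TPM and 20.2% with no filter on low values. Of genes with an extra CV over 20%, 580 became 310 after the GC correction, an alternative chosen after seeing the data, and 424 to 855 without 1 library, 424 without library 6. In pairs, 35 passed with pseudocounts of 0.01, 0.1 and 1 TPM, and 38 on CPM without a length correction. That scale moved 18 of 38 ratios by over 1.5 times, and pseudocounts of 1 and 0.01 TPM moved 5 and 4. CPM turned the sign for developmental over adult myosin heavy chains (log2 ratio 0.22), Atp2a2 over Atp2a1 (0.68) and Slc25a5 over Slc25a4 (-0.36), and brought Tnnt2 over Tnnt3 past the threshold (0.31). No pair turned its sign when 1 library was left out, where 5 libraries allow no p under 0.0625. No paired analysis was possible because only control libraries were used, in which each replicate number occurs once; each pair was already compared within a library.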

Other observations

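Beside the protein-coding genes, lncRNA genes took 3.38% ± 0.42 of TPM (SD, n = 6), from 2.88% in library 4 to 4.02% in library 1, and pseudogenes 4.16% ± 0.20. Nuclear ribosomal RNA took 0.99% ± 0.19 and small nuclear, nucleolar and other small RNA 0.37% ± 0.041. Replication-dependent histone genes, whose transcripts carry no poly(A) tail, took 0.057% ± 0.0085. Of these, 14 of 66 were expressed, where 50.1% of all protein-coding genes were. Of the list of noncoding RNAs, Malat1 stood at 864 ± 239 TPM, Gas5 at 587 ± 83.9 TPM and Norad at 149 ± 6.0 TPM.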
